A study of Sesamum indicum with 195 samples.

Results

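In sesame roots (Sesamum indicum), 101 genes had an average transcript level below the untreated control during drainage but close to the control during the preceding waterlogging. They were chosen by a rule on measured values. For each genotype and time, d was the level in stressed roots minus the level in control roots, both as log2 of the mean TPM of 3 replicates plus 1 (TPM is a relative abundance scaled by gene length and by the sample's total). D is the mean of d at 40, 44 and 48 h, after drainage, over both genotypes, and W is the mean of d at 4, 8, 12, 16, 20, 24 and 32 h of waterlogging. A gene was taken if D was at most -1 and W lay between -0.5 and 0.5. Of 20271 genes in the table, 18178 had a mean TPM of at least 1 and entered the rule, and all 101 members are protein coding in the reference table of genome v1.0.

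The roots came from 2 genotypes at the flowering stage, Ezhi No.2 (EG), which is sensitive to waterlogging, and ZZM2541 (R2G), which is tolerant. Potted plants of both were drained after 36 h of waterlogging and sampled at 38, 40, 42, 44, 46 and 48 h (drained, 18 samples per genotype), or sampled under waterlogging at 2 to 36 h (waterlogged, 45 samples per genotype). Untreated plants in pots kept at normal soil moisture gave 30 control samples per genotype at 4, 8, 12, 16, 20, 24, 32, 40, 44 and 48 h, and 3 samples per genotype were taken at 0 h. A further 3 EG samples at 48 h came from plants labelled as wilting, which the study's methods describe as dead. Each of the 65 conditions had 3 replicates, each from its own pot, with 3 seedlings to a pot. In bulk roots, fewer cells of a type and less RNA per cell cannot be told apart.

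Roots under water run short of oxygen, and root cells then lean on fermentation and slow much of their growth and biosynthesis. Drainage lets air back in, and the return of oxygen is a stress of its own, marked by reactive oxygen species and often by poor water uptake. Transcripts can therefore follow the flood, its end, or both. The reference used here names these genes only by locus identifier, so roles of single genes are not given and the root label was not checked against marker genes. LOC105176482 is the single member with a synonym, IPS.

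The replicates of the samples in the main test below correlated at 0.96 to 0.99 on average within a condition, and the lowest average among all conditions was 0.95, in EG at 28 h (Pearson's r of log2(TPM + 1), across genes). The TPM values of each sample sum to between 999096 and 999827, so they carry no read depth, and the tests below could not weigh samples by it. Across all 18178 genes, the drained samples at 38, 42 and 46 h had a median log2 fold change of 0.36 over the waterlogged samples at 14, 18 and 22 h, and of 0.01 after median-ratio scaling between samples.

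The values that chose the members are given first, as a description with no test. The median D of the 101 genes was -1.23, with a range of -4.29 to -1.003, against 0.00 over all genes. Their median W was -0.26, with a range of -0.50 to 0.48, against -0.37 over all genes, and 83 of them had a W below 0. Low values during drainage were found in 1734 genes with D of at most -1, but 1624 of these also had a W below -0.5 and 9 had a W above 0.5. The members make up 5.82% of the genes that were low during drainage. After median-ratio scaling, 205 genes met the rule, 91 of the members among them, and the median W was 0.08 for the members, against -0.04 over all genes. Just inside the threshold were LOC105162883 with a D of -1.01 and LOC105173824 with a D of -1.003. Just outside it were LOC105157965 and LOC105170934, both with a D of -0.99.

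In EG, the median d of the members was 0.80 at 4 h, -0.36 at 8 h, -0.48 at 12 h, -0.42 at 16 h, -0.25 at 20 h, -0.42 at 24 h and -0.66 at 32 h of waterlogging. It was -1.29 at 40 h, -1.33 at 44 h and -1.39 at 48 h, after drainage. The rule itself set the place of this step, and the value at 32 h was already the lowest of the waterlogged ones, while all genes had a median d between -0.09 and 0.09 in EG during drainage. In R2G, the median d was -0.45 at 4 h, 0.00 at 8 h, -0.38 at 12 h, 0.10 at 16 h, -0.14 at 20 h, -0.22 at 24 h and -0.17 at 32 h. It was -1.31 at 40 h, -1.16 at 44 h and -1.10 at 48 h. Of the 101 genes, 100 lay below the control in all 6 drainage comparisons, and 17 had a d of at most -1 in each of them.

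**Figure D1:**
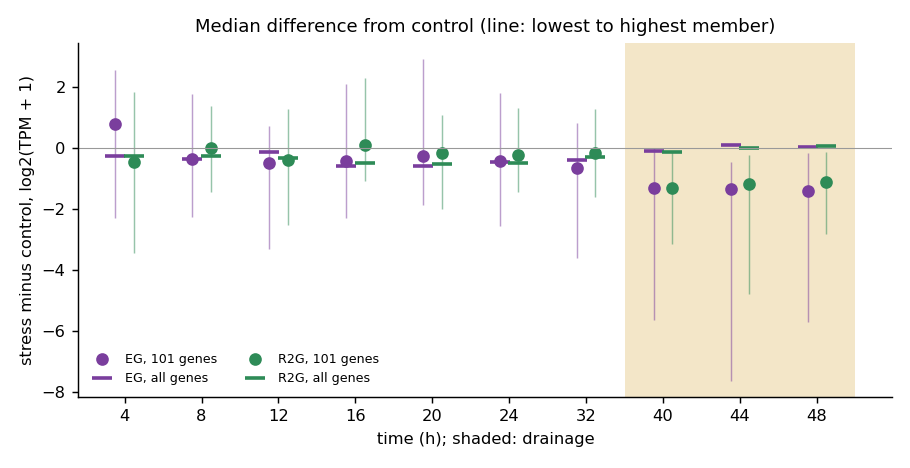
Difference between stressed and control roots, on the log2(TPM + 1) scale, at each time with a control (h). Dots give the median of the 101 genes, dashes the median of all genes, and thin lines run from the lowest to the highest of the 101. The medians of the 101 genes lie between -0.66 and 0.80 under waterlogging and between -1.39 and -1.10 after drainage (shaded).

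The waterlogged values were less even than W shows. At 4 h, 45 members had a d of at least 1 in EG, against 7 in R2G, and 1 member had a d of at most -1 in EG, against 20 in R2G. At 32 h, the last waterlogged time with a control, 39 members had a d of at most -1 in EG and 15 in R2G. In 93 of the 101 genes at least 1 of the 14 waterlogging comparisons lay beyond 1 in either direction, and 11 had no waterlogging d of at most -1. A level near the control in the flooded phase therefore holds only for the average of each gene, and low single time points occurred in all but 11 members.

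The members spanned a wide range of abundance. Their median control level was 19.5 TPM, against 17.8 TPM over all genes, and they ran between 1.48 and 2496 TPM. They lay on 15 linkage groups (94 genes), and 7 were unplaced. Their median gene length was 2411 bases, against 3615 bases over all genes, and 81.2% had a single annotated transcript, against 68.5% over all genes. No test was made on these features.

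**Figure D2:**
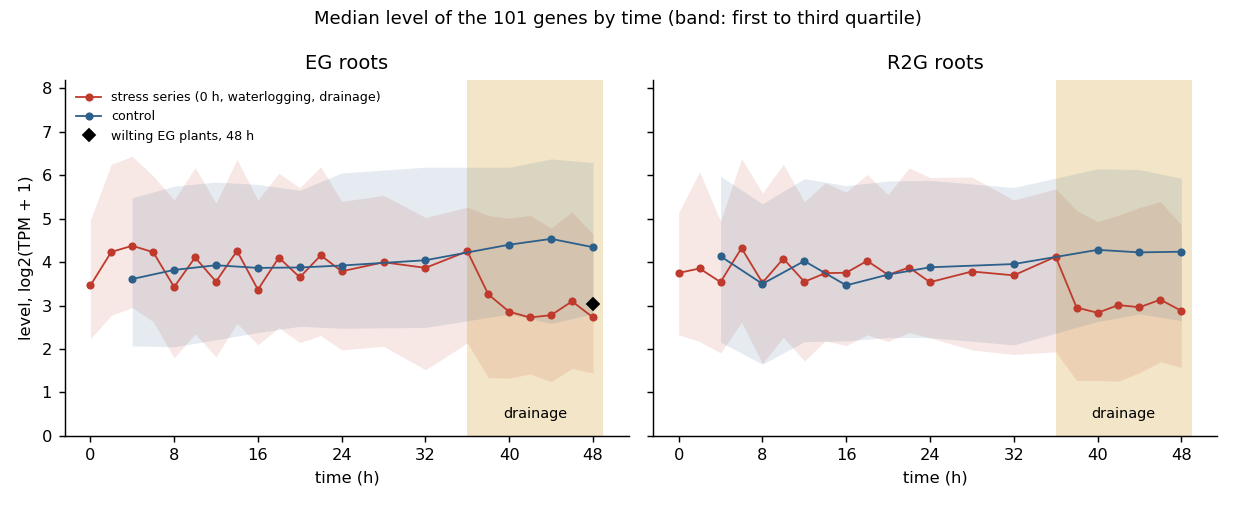
Median level of the 101 genes, as log2(TPM + 1), by time (h) in EG and R2G. Lines join the stress series (red) and the control (blue), bands run between the first and the third quartile of the genes, and the diamond marks the wilting EG plants. The waterlogged medians lie between 3.37 and 4.38 in EG and between 3.53 and 4.32 in R2G, and the drained medians between 2.72 and 3.26.

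The plot of median levels by time shows how the 2 series parted. In drained EG roots, the median level of the members was 3.26 at 38 h, 2.86 at 40 h, 2.72 at 42 h, 2.78 at 44 h, 3.10 at 46 h and 2.73 at 48 h, after 4.25 at 36 h under water. In drained R2G roots, it was 2.95 at 38 h, 2.83 at 40 h, 3.01 at 42 h, 2.96 at 44 h, 3.13 at 46 h and 2.88 at 48 h, after 4.12 at 36 h under water. The control medians at 40, 44 and 48 h were 4.40, 4.54 and 4.34 in EG and 4.28, 4.22 and 4.24 in R2G. The waterlogged medians were not all as high as at 36 h, the lowest being 3.37 in EG (16 h) and 3.53 in R2G (8 h). At 38 h, the first sampling after the water was removed, the drained median was already below these. At 0 h, before any treatment, the median was 3.46 in EG and 3.75 in R2G.

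Samples that the rule did not use allowed a test. Drained roots at 38, 42 and 46 h were compared with waterlogged roots at 14, 18 and 22 h, which were taken at the same clock time 24 h earlier (18 against 18 samples, limma on log2(TPM + 1), both genotypes together). Calls needed an adjusted p under 0.05 (Benjamini-Hochberg, over all genes) and a log2 fold change of 1 or more in size. Of the 101 members, 47 (46.5%) were called lower in drained roots, against 3.28% of all 18178 genes, and 3 were called higher, against 19% of all genes. The median log2 fold change of the members was -0.89, against 0.36 over all genes, with a range of -4.18 to 2.02. It was below 0 in 88 members, and without the fold limit 79 were lower and 6 higher at an adjusted p under 0.05, against 20.1% and 61.5% of all genes.

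No control was sampled at these hours, so drainage and the passage of 24 h cannot be told apart in this comparison. With waterlogged roots at 28 and 36 h in place of those at 14, 18 and 22 h, 23 of the 101 members were called lower, against 3.93% of all genes, and 1 was called higher, against 24.3%. After median-ratio scaling, 65 members were called lower, against 7.6% of all genes, with a median of -1.29 and 94 below 0, and these 65 held all 47. The same scaling turned the split over all genes to 1381 lower and 1859 higher, against 596 lower and 3453 higher without it.

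**Figure D3:**
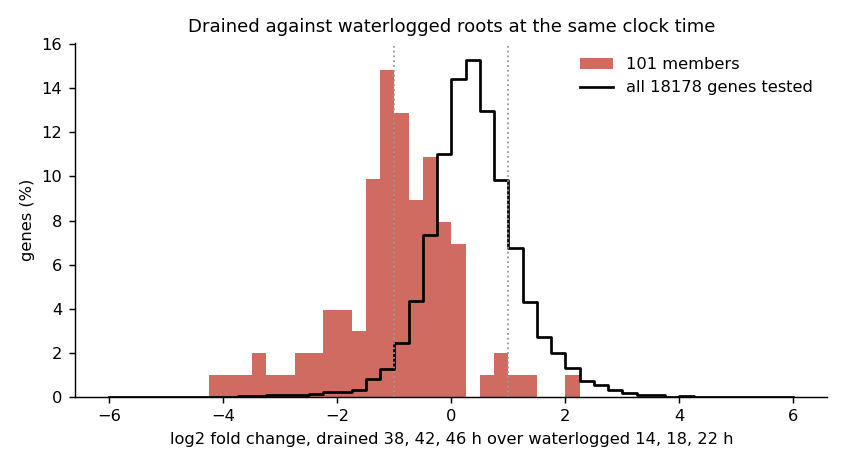
Distribution of the log2 fold change of drained roots at 38, 42 and 46 h over waterlogged roots at 14, 18 and 22 h, in percent of the 101 members (filled) and of all 18178 genes (line). Dotted lines mark fold limits of -1 and 1. The members centre on -0.89 and all genes on 0.36.

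In 16 members, all 18 drained samples lay below all 18 waterlogged samples, which held for 1.16% of all genes, and in 0 members did they all lie above. The drained mean was below the waterlogged mean in all 6 pairs of genotype and time in 63 members, against 10.2% of all genes, and above it in all 6 pairs in 4 members, against 39.6% of all genes. The 1624 genes that were low during drainage and also had a W below -0.5 gave another picture in the same comparison. Of these, 93 (5.73%) were called lower and 332 (20.4%) higher, with a median log2 fold change of 0.32. These genes and the members were split by W, a waterlogged level against control, so part of this contrast follows from the choice itself. The difference between these genes and the members was not tested.

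The waterlogged samples without a control at their hour stood higher than those with one. For the members, the level at 10, 14, 18 and 22 h exceeded that at 8, 12, 16, 20 and 24 h by a median of 0.59 in EG (83 of 101 genes higher) and 0.35 in R2G (79 of 101), against 0.03 over all genes in each genotype. Among drained samples, those at 38, 42 and 46 h differed from those at 40, 44 and 48 h by a median of 0.14 in EG and 0.11 in R2G. The part of this alternation in the 47 calls was not tested. The p-values do not take it in, since their spread comes from replicates within each condition. Within the hours that have a control, which the rule used, the drained level at 40, 44 and 48 h was below the waterlogged level at 16, 20 and 24 h by a median of 0.68 on the log2 scale (median change -0.68), in 89 of 101 members. It was lower in all 6 pairs of genotype and time in 58 members and by at least 1 in 35, as a description with no test. The median change over all genes at these hours was 0.40, and shares of all genes are not given for these counts.

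The control differed between the days as well. These are values that the rule used, and since it favours a high late control, they are a description with no test. Between 16, 20 and 24 h and the same clock times a day later, the control level of the members changed by a median of 0.35, against -0.09 over all genes, and it was higher on the later day in 79 of them. In 13 members the control rose by at least 1. The fall in the stressed roots was larger than the rise in the control in 63 members, and the rise in the control was larger in 38. Both are signed here, so a control that fell counts as a negative rise, and a stressed level that rose as a negative fall. Among these 38, 9 belonged to the 47 genes called lower in the separate comparison and 29 to the other 54. The median control change was 0.23 in the 47 called genes and 0.48 in the other 54.

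**Figure D4:**
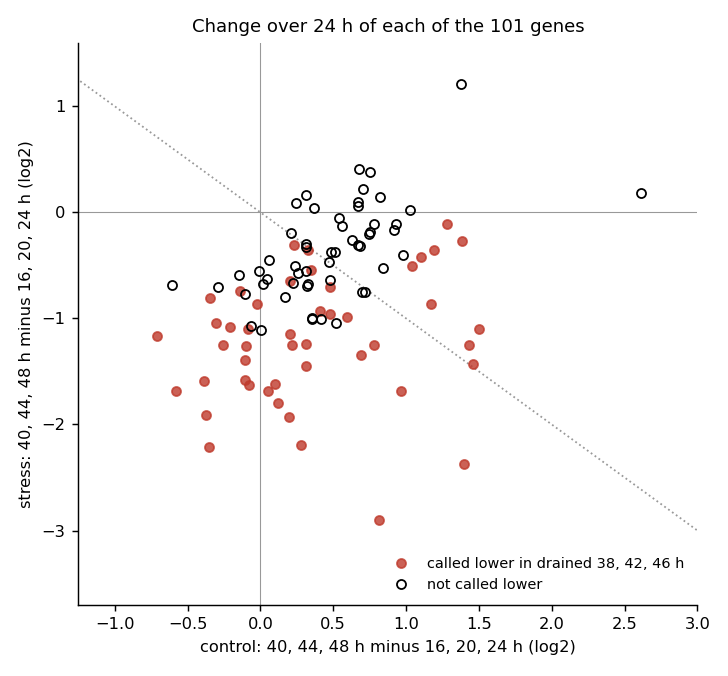
Change over 24 h of each of the 101 genes in stressed roots (vertical axis) and control roots (horizontal axis), both as log2(TPM + 1) at 40, 44 and 48 h minus 16, 20 and 24 h. Filled points are the 47 genes called lower in drained roots at 38, 42 and 46 h. The 38 genes above the dotted line had a control rise larger than the stressed fall, both taken with their sign.

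LOC105162012, the gene with the lowest D (-4.29), shows the control side of the rule. In drained roots at 40, 44 and 48 h it had 0 to 0.702 TPM, with a median of 0.199 TPM over 18 samples. In control roots at the same hours it had 0.0753 to 497 TPM, with a median of 2.99 TPM. The control means of LOC105162012 were 50.3, 267 and 59.4 TPM in EG and 0.953, 42.7 and 1.50 TPM in R2G at 40, 44 and 48 h. In the separate comparison it had at most 1.15 TPM in drained roots and at most 0.575 TPM in waterlogged roots, and its log2 fold change was 0.18 (SE 0.32, limma adjusted p = 0.61). The stressed roots were near 0 in both phases, and the high values of this gene were in late control samples.

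LOC105173162, on linkage group 11 at 1075993-1079266 (genome v1.0, as for all positions below), had the next lowest D (-2.96). In drained roots at 38, 42 and 46 h it had 0.471 to 4.79 TPM, with a median of 1.05 TPM (n = 18). In waterlogged roots at 14, 18 and 22 h it had 12.9 to 51.0 TPM, with a median of 18.4 TPM (n = 18). The groups did not overlap, and the log2 fold change was -3.09 (SE 0.16, limma adjusted p = 1.7e-40). In EG, its mean was 12.7 TPM at 36 h under water, 4.29 TPM at 38 h, 1.30 TPM at 40 h, 1.09 TPM at 42 h, 0.815 TPM at 44 h, 0.929 TPM at 46 h and 0.447 TPM at 48 h. The decline of LOC105173162 thus ran on past the first drained time point, and drained values also lay below the 0 h range of 10.6 to 29.1 TPM (n = 6). From 38 against 14 h to 46 against 22 h its log2 fold change differed by -2.06 (SE 0.38, limma adjusted p = 2.8e-06). Both sides entered this difference, as the drained mean was 3.85 TPM at 38 h and 0.872 TPM at 46 h. The waterlogged mean was 16.7 TPM at 14 h and 29.6 TPM at 22 h.

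LOC105161173, on linkage group 4 at 15881032-15888161, had 1.06 to 10.4 TPM in drained roots at 38, 42 and 46 h, with a median of 3.48 TPM. In waterlogged roots at 14, 18 and 22 h it had 8.28 to 51.6 TPM, with a median of 19.8 TPM. The ranges overlapped slightly, every pair of genotype and time had the drained mean lower, and the log2 fold change was -2.22 (SE 0.18, limma adjusted p = 3.2e-23). At 0 h, LOC105161173 had 19.6 to 46.1 TPM, above all drained samples. LOC105172808 on linkage group 10 had 0.271 to 2.21 TPM in drained roots, with a median of 0.653 TPM, and 1.55 to 19.4 TPM in waterlogged roots, with a median of 4.62 TPM, so the ranges overlapped. Its log2 fold change was -1.73 (SE 0.19, limma adjusted p = 1.1e-15), and on the log2(TPM + 1) scale such low values understate the fold.

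LOC105161960, on linkage group 5 at 4129335-4133717, was lower in drained roots than at the start. In drained roots at 38, 42 and 46 h it had 25.2 to 176 TPM, with a median of 64.3 TPM. In waterlogged roots at 14, 18 and 22 h it had 230 to 846 TPM, with a median of 486 TPM, so the groups did not overlap. The 0 h samples had 190 to 260 TPM, above all drained samples and overlapping the low end of the waterlogged range. The log2 fold change of LOC105161960 was -2.73 (SE 0.16, limma adjusted p = 5.5e-34), and at 38 against 36 h it was -2.36 (SE 0.28, limma adjusted p = 2.8e-13).

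Of the 6 largest falls in the separate comparison, 3 were in the members with the highest control level. LOC105155589, on linkage group 2 at 7931978-7934395, had 77.7 to 295 TPM in drained roots at 38, 42 and 46 h, with a median of 165 TPM. In waterlogged roots at 14, 18 and 22 h it had 2019 to 6067 TPM, with a median of 3330 TPM. No drained sample came near a waterlogged one, and the log2 fold change was -4.18 (SE 0.17, limma adjusted p = 5e-49). At 40, 44 and 48 h against 16, 20 and 24 h, LOC105155589 changed by less (-2.38 on the log2 scale, not tested). Its 0 h level was 196 to 307 TPM, so the drained roots stood near the starting level. The control of LOC105155589 varied widely by hour, with means of 2451 TPM at 4 h and 325 TPM at 16 h in EG.

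LOC105173722 on linkage group 11, the member with the highest control level, had 144 to 884 TPM in drained roots, with a median of 366 TPM, and 1923 to 7471 TPM in waterlogged roots, with a median of 4006 TPM. LOC105174592 on linkage group 11 had 196 to 994 TPM in drained roots, with a median of 460 TPM, and 2094 to 8164 TPM in waterlogged roots, with a median of 4864 TPM. Neither gene had overlapping groups. Their log2 fold changes were -3.35 (SE 0.19, limma adjusted p = 1e-35) and -3.30 (SE 0.20, limma adjusted p = 4.2e-32). At 40, 44 and 48 h against 16, 20 and 24 h, LOC105173722 changed by -1.43 and LOC105174592 by -0.86 (not tested). At 0 h they had 157 to 396 TPM (LOC105173722) and 162 to 537 TPM (LOC105174592), which overlapped the drained ranges. Waterlogged means of LOC105174592 in EG were 4676 TPM at 14 h, 852 TPM at 16 h, 5764 TPM at 18 h, 1843 TPM at 20 h, 3655 TPM at 22 h and 1100 TPM at 24 h. In EG, the hours without a control were thus the high ones of this run in this gene.

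LOC105162558 on linkage group 1 had 1.45 to 20.2 TPM in drained roots, with a median of 8.11 TPM, and 20.6 to 432 TPM in waterlogged roots, with a median of 128 TPM. LOC105158488, also on linkage group 1, had 3.09 to 12.6 TPM in drained roots, with a median of 6.15 TPM, and 17.6 to 392 TPM in waterlogged roots, with a median of 83.1 TPM. The groups did not overlap in either gene, and the log2 fold changes were -3.76 (SE 0.23, limma adjusted p = 1.5e-32) and -3.74 (SE 0.18, limma adjusted p = 1.2e-41). LOC105176482 (IPS), on linkage group 13 at 4876164-4879246, had 0.709 to 3.11 TPM in drained roots, with a median of 1.83 TPM, and 6.35 to 23.1 TPM in waterlogged roots, with a median of 13.3 TPM. Its log2 fold change was -2.37 (SE 0.12, limma adjusted p = 2.5e-41), and the 0 h samples lay at 2.61 to 7.41 TPM.

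**Figure D5:**
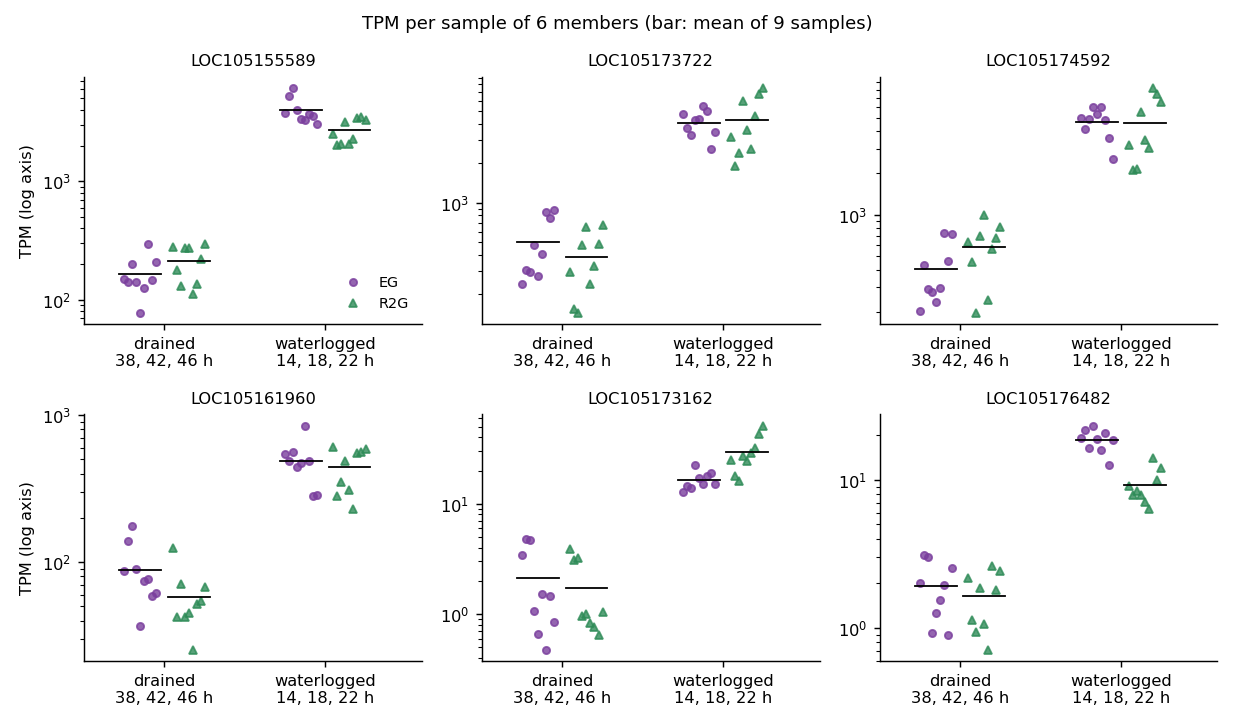
TPM of 6 members in every sample of the separate comparison, on a log axis, with drained roots at 38, 42 and 46 h left and waterlogged roots at 14, 18 and 22 h right. Circles are EG, triangles R2G, and bars are the means of 9 samples. In all 6 genes the 18 drained samples lie below the 18 waterlogged samples.

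Relative to 0 h, the members did not move in a single direction. The level in drained roots at 38, 42 and 46 h was below 0 h in 62 of the 101 genes, by a median of 0.26 on the log2 scale (median change -0.26), against a median of -0.22 over all genes. It was lower by at least 1 in 28 members and higher by at least 1 in 13. These are descriptions with no test.

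The 3 members called higher went against the group in the separate comparison. LOC105175940 on linkage group 12 had 13.2 to 102 TPM in drained roots, with a median of 31.1 TPM, and 3.46 to 29.0 TPM in waterlogged roots, with a median of 7.38 TPM. Its log2 fold change was 2.02 (SE 0.27, limma adjusted p = 2.8e-11), while its control at 40, 44 and 48 h reached 215 TPM. LOC105163709 on linkage group 6 had a log2 fold change of 1.28 (SE 0.11, limma adjusted p = 2.6e-20), with medians of 5.98 TPM in drained and 2.08 TPM in waterlogged roots. LOC105162883 on linkage group 5 had 1.11 (SE 0.13, limma adjusted p = 5.4e-14), with medians of 2.33 TPM in drained and 0.398 TPM in waterlogged roots, and with waterlogged roots at 28 and 36 h in the comparison it was -0.17. After median-ratio scaling, 1 of the 3 was still called.

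Each genotype was also tested alone. In EG, 52 members were called lower, against 4.4% of all genes, with a median log2 fold change of -1.03. In R2G, 40 were called lower, against 3.06% of all genes, with a median of -0.84. Of these, 33 were called in both genotypes, 19 in EG only and 7 in R2G only, against 2.32%, 2.08% and 0.748% of all genes. A call in a single genotype does not show that the genotypes differ, and the difference itself was tested as an interaction.

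For EG minus R2G, 2 members had a lower and 1 a higher log2 fold change past both limits, against 2.54% and 1.12% of all genes. Leaving out a replicate number gave 5, 1 and 8 calls in place of 3 (without replicates 1, 2 and 3). Shares of all genes for these refits are not given, so their counts show only how the number of calls moved. With all replicates and without the fold limit, 18 members were lower and 3 higher at an adjusted p under 0.05, against 12.7% and 5.88% of all genes. These shares are near the background, so the members as a group gave no result for the genotype difference, and the 3 called genes are given as single values. LOC105170639 on linkage group 9 averaged 2.35 ± 0.873 TPM in drained and 20.3 ± 7.04 TPM in waterlogged EG roots, and 5.26 ± 2.03 TPM in drained and 17.9 ± 8.50 TPM in waterlogged R2G roots (SD, n = 9 each). The log2 fold changes were -2.65 in EG and -1.50 in R2G, and they differed by -1.15 (SE 0.26, limma adjusted p = 0.00072). LOC105162020 on linkage group 5 had -1.39 in EG and -0.38 in R2G, a difference of -1.01 (SE 0.21, limma adjusted p = 0.00026). Over both genotypes, LOC105162020 had -0.002 at 38 against 36 h (SE 0.18, limma adjusted p = 0.99). At 36 h under water it had 17.7 to 31.2 TPM, already below its 33.1 to 78.1 TPM at 14, 18 and 22 h. LOC105179224, which is unplaced, had 0.09 in EG and -1.40 in R2G, a difference of 1.49 (SE 0.35, limma adjusted p = 0.0012).

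The median D was -1.31 in EG and -1.20 in R2G, and 62 members had the lower D in EG, as a description of the values the rule used.

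The fall was present at each clock time. At 38 against 14 h, 46 members were called lower (4.53% of all genes), with a median log2 fold change of -0.96. At 42 against 18 h, 50 were called lower (4.07% of all genes), with a median of -0.999, and at 46 against 22 h, 44 were (4.3% of all genes), with a median of -0.92. The call was made at all 3 clock times in 31 members, at 2 in 16, at 1 in 15 and at 0 in 39, against 1.63%, 2.02%, 3.97% and 92.4% of all genes. Between the first and last of these clock times, the fold change of 8 members was called lower and that of 11 higher, against 4.11% and 16.3% of all genes, and the median difference was -0.01. Without replicate 1 the count of 11 was 5, with no share of all genes given for that refit.

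Drained roots at 38 h were set against waterlogged roots at 36 h, the last sampling before drainage. There, 27 members were called lower, against 4.55% of all genes, and 1 was called higher, against 20.7%. After median-ratio scaling 42 were called lower, against 10.6% of all genes. The median log2 fold change was -0.46, against 0.34 over all genes, and 18 of the 27 were also called in the main comparison. LOC105173722 had the lowest value, -2.60 (SE 0.33, limma adjusted p = 4.4e-12). The 36 h and 38 h samples differ in clock time as well as in drainage, and the part of each cannot be told apart.

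Calls occurred at low and high abundance, but the share of members called was lowest at the lowest control level. Of the 25 members with a control level under 5 TPM, 4 were called lower in the main comparison (3.52% of all genes at that level). Of the 61 members between 5 and 100 TPM, 33 were (2.80% of all genes at that level), and of the 15 at 100 TPM or more, 10 were (5.69%). The log2(TPM + 1) scale shrinks the fold changes of the lowest genes.

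There were 4 pairs of members within 50 kb of each other, picked out after their values were seen. LOC105159207 and LOC105159285 lay 111 bases apart on linkage group 3, and their log2 fold changes in the main comparison were 0.14 (limma adjusted p = 0.25) and -2.31 (limma adjusted p = 1.8e-24). LOC105173200 and LOC105173202 on linkage group 11 had -1.004 and -0.987, and LOC105170864 and LOC110012598 on linkage group 9 had -0.28 and -1.19. LOC105160655 and LOC105160657 on linkage group 4 had -0.51 and -0.17. The fold changes of neighbours thus differed by over 2 in the closest pair, whose annotated spans do not overlap. Whether transcripts of either gene run into the other was not checked.

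Wilting EG plants at 48 h were not used by the rule. The median of wilting minus control over the members was -1.26, against 0.15 over all genes, and that of surviving minus control was -1.40. The mean of the wilting plants lay below the control mean in 98 of 101 genes, and by at least 1 in 63. All 3 wilting samples lay below all 3 control samples in 72 genes, against 20.3% of all genes. The same held for the surviving plants in 95 genes, against 27.8% of all genes, but the rule had used their values and those of the controls. The median of wilting minus surviving was 0.12, against 0.07 over all genes, with 56 members higher in wilting plants. In 10 members wilting plants were higher by at least 1, and in 0 were they lower by at least 1. LOC105162558 was among the higher ones, with a mean of 37.5 TPM in wilting, 8.15 TPM in surviving and 33.7 TPM in control EG roots (n = 3 each). Shares of all genes are not given for the counts of 98, 63, 56, 10 and 0. No test was made on the wilting plants, since the control samples had set the membership.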

How the data were processed

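The authors cleaned the reads (FastQC, Trimmomatic 0.32), mapped them with STAR to sesame genome v1.0, counted uniquely matched reads per gene with featureCounts and deposited TPM. Read counts were not used here, and since the TPM table carries no depth, intervals for counting error are not given. Each column of the table matched a sample by its name. The members, lists and comparisons were chosen with earlier results of these data known.

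A single limma model (limma 3.58.1, R 4.3.3, eBayes with a trend) with the 65 conditions as groups was fitted to log2(TPM + 1) of the 18178 genes whose mean TPM reached 1, and Benjamini-Hochberg adjustment ran over all of these genes. The model was also run on simulated data, with no result given here. The other steps used Python 3.11.15. The p-values measure the spread between single plants from separate pots within a condition. Differences between sampling hours do not enter that spread.

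Genes are named if they had 1 of the 6 lowest D values, 1 of the 6 lowest or 3 highest log2 fold changes, 1 of the 3 highest control levels, a call in EG minus R2G, a synonym, or a place next to the D threshold. Neighbouring pairs were added after their values were seen. The alternatives were another pseudocount (0.1), all genes in place of the filtered ones, median-ratio scaling, only the compared samples in the model, 28 and 36 h as the waterlogged samples, a replicate block and each replicate left out. The rule was also applied to EG or R2G alone and with the mean of log2 values. The planned searches for protein and promoter motifs were not run, as no sequences were used here.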

Additional observations from a re-analysis of the deposited data

Results flagged for a closer look

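For 3 of the 101 members the log2 fold change of drained over waterlogged roots differed between the genotypes past both limits. Without the fold limit, 18 were lower and 3 higher at an adjusted p under 0.05. The test was the limma interaction, EG minus R2G, of drained 38, 42 and 46 h against waterlogged 14, 18 and 22 h. LOC105179224 differed by 1.49 on the log2 scale, LOC105170639 by -1.15 and LOC105162020 by -1.01. These are 2 lower and 1 higher member, against 2.54% and 1.12% of all genes, so the share is near that of all genes. Between 1 and 8 members were called when a replicate was left out, with no share of all genes given for those refits.

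For 6 named members the log2 fold change differed between clock times past both limits (46 against 22 h minus 38 against 14 h). It was lower at the later time by -2.06 in LOC105173162 (limma adjusted p = 2.8e-06), -1.86 in LOC105158488 (limma adjusted p = 0.00026), -1.75 in LOC105175940 (limma adjusted p = 0.022) and -1.11 in LOC110012598 (limma adjusted p = 0.00073). It was higher by 1.33 in LOC105173202 (limma adjusted p = 0.00015) and 1.08 in LOC105173200 (limma adjusted p = 0.00077). Over the members, 8 were called lower and 11 higher in this test, against 4.11% and 16.3% of all genes. LOC105175940 is 1 of the 3 members called higher in drained roots, with a log2 fold change of 3.11 at 38 against 14 h and 1.36 at 46 against 22 h. The causes of these differences were not tested.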

How the results depend on the processing

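Of 104 recomputed counts, 93 stayed within 1.5 times the main count and 11 moved. With 28 and 36 h as the waterlogged samples, 23 members were called lower (3.93% of all genes) and 1 higher (24.3%), and LOC105162883 turned to -0.17. With median-ratio scaling, 1 member was called higher in the main comparison, 42 were called lower at 38 against 36 h (10.6% of all genes) and 16 had a lower fold change at 46 against 22 h than at 38 against 14 h (6.57% of all genes). With a pseudocount of 0.1, 5 members were called in EG minus R2G, and with a replicate left out between 1 and 8 were. With a replicate left out, between 5 and 13 had a higher fold change at the later clock time. Shares of all genes with this pseudocount or a replicate left out are not given, so these counts are not set against a background. The rule applied to EG alone kept 66 of the 101 members. The causes were not tested.

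Of 234 recomputed values of 26 genes, 221 kept their direction and side of the limits, 7 fell below a limit, 5 passed it and 1 turned. The study names a blocking design with 3 replicates, but the labels do not say that a number marks a block. Pairing by number was not evident in every case, as same-numbered deviations correlated at -0.30 to 0.35 over 24 pairs of samples (mean 0.08), with 10 over 0.1 and the sample's own number highest in 12 of the 24. With a replicate block, 47 members were called lower, as without it, and the share of all genes is not given for that fit. The TPM carry no depth, so counting error of low genes could not be set apart from the spread between plants.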
